A study of Mus musculus with 2 samples.

Results

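The nuclear genes of oxidative phosphorylation, the system of protein complexes by which mitochondria make ATP, were examined for accessible chromatin at their promoters in mouse splenic B cells. The members were the protein-coding genes of the GENCODE M1 annotation on chromosomes 1 to 19 whose names start with Nduf, Uqcr, Cox4 to Cox8 or Atp5, or are Sdha, Sdhb, Sdhc or Sdhd. The rule, which used names and no measured value, gave 89 gene models of 21418. The cells came from the spleen of 8 weeks old C57/Bl6 animals of genotype Trp53+/+ that had received the mock treatment, and were enriched by MACS with B220 MicroBeads, which bind a surface protein of B cells. From such cells 1 DNaseI library and 1 input library were made, and no file of the input library was used here. DNase I cuts open DNA more readily than DNA wrapped on nucleosomes, and a region rich in such cuts is a DNase I hypersensitive site (DHS). The study compared p53 activity in B cells with and without genotoxic stress, and its DNase-seq mapped the accessible chromatin of unstressed cells.

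Oxidative phosphorylation runs on 5 complexes of the inner mitochondrial membrane. Complexes I and II take electrons from NADH and from succinate, complex III passes them to cytochrome c, complex IV hands them to oxygen, and complex V, the ATP synthase, uses the resulting proton gradient. Nearly all subunits are encoded in the nucleus and must be made in matched amounts with a few that the mitochondrial genome encodes. Their promoters are known for binding sites of NRF1, GABPA (an ETS factor), YY1 and the estrogen-related receptors (ERR), and several subunits of complex IV have additional isoforms made mainly in muscle, testis or lung.

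The list holds 46610 DHS on chromosomes 1 to 19, each with a score given by the peak caller. A higher score marks a stronger site within this list, but the scale of the score is not stated, so it serves only to rank. The median score of the list was 32.65, and its depth is unknown. All 8 B cell marker genes examined, among them Cd79a and Cd79b, had a promoter DHS, with scores from 45.4 to 265, against 1 of 8 T cell genes (Lat, score 24.5). With 1 library there is no replicate check and no test between samples. The intervals given are exact binomial intervals at the 95% level, or order-statistic intervals for medians, and describe counting error only.

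A gene counted as having a promoter DHS when a DHS overlapped the region within 1 kb of any annotated start by at least 1 bp. This was so for 82 of the 89 members (92.1%, interval 84.5 to 96.8), while 54.4% of all 21418 protein-coding genes had one. The share was 98.7% for mitochondrial ribosomal protein genes and 95.1% for proteasome subunit genes, so it was not particular to the members. With DHS at or above the median score of the list alone, it was so for 79 members (88.8%), against 48.3% of all genes. An annotated start itself was covered by a DHS at 77 members (86.5%), against 47.1% of other genes. Most of the other genes without a DHS have promoters poor in CpG. Among the other genes, a promoter DHS was called at 84.4% of those with a CpG-rich promoter and at 34.1% of the rest (33.3 to 35.0). A promoter was taken as CpG-rich when the 1000 bp around the primary start, that of the transcript GENCODE numbers first, reached 55% GC and held 0.6 or more of the CpG dinucleotides expected from its base composition.

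The genes were sorted by role by hand, from general knowledge and with earlier results of these data known, so the counts by role are a description that rests on that sorting. All 71 genes placed as widely expressed subunits of complexes I to V had a promoter DHS. These were 35 of 35 for complex I, 4 of 4 for complex II, 8 of 8 for complex III, 9 of 9 for complex IV and 15 of 15 for complex V. Only 44 of the 71 had CpG-rich promoters. The 27 subunit genes without one all had a DHS as well, at a median score of 103, against 34.1% of the other genes of that promoter class, whose median where a DHS was present was 81.7. These 27 lay nearer to the limit of the class, with a median GC content of 52.8% and a median CpG ratio of 0.669, against 49.4% and 0.275 for the other genes. Among 10 genes of assembly factors and related proteins 8 had one, and among 8 genes of tissue isoforms 3 did. The 7 members without were Cox4i2, Cox6a2, Cox7b2, Cox8b, Cox8c, Atp5l-ps1, which is annotated by its name as a copy of Atp5l, and a second gene model that also bears the name Ndufb8. Where no DHS was called, weakly accessible chromatin cannot be told from closed chromatin, since the depth is unknown.

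**Figure D1:**
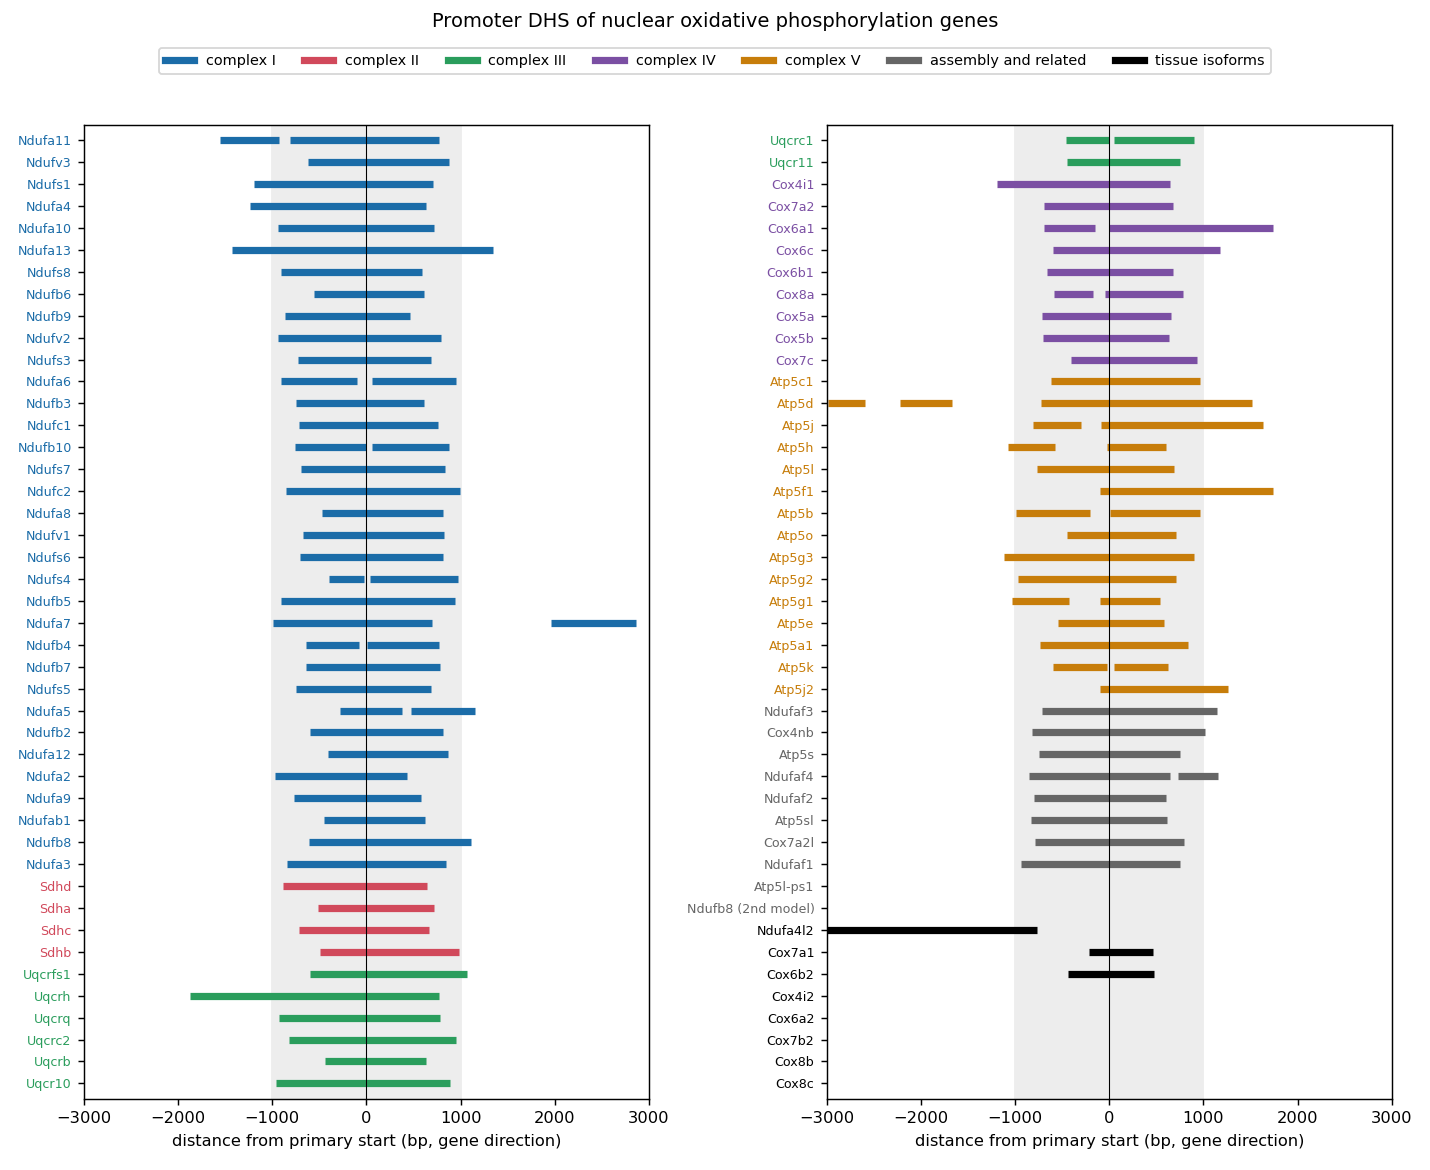
DHS of the members, with 1 gene not shown, by distance in bp from the primary start, along the direction of the gene, with 1 row a gene, coloured by complex and sorted by top score within it. The grey band marks 1 kb on each side, bars outside it lie near another annotated start or reach in from outside, and the 7 empty rows are the members with no DHS.

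The top DHS of the 82 genes had a median score of 109 (interval 95.9 to 121) with quartiles at 87.1 and 135, and the 11579 other genes with a promoter DHS had a median of 103 with quartiles at 61.8 and 154. The medians differed by 6.33, and those of genes with CpG-rich promoters in both sets by 6.65. The sign was not the same for every comparison. Against other CpG-rich genes all members, CpG-rich or not, differed by -4.94, and genes of either set with no gene starting back to back with them differed by -1.59. Few members had very low or very high scores. Of the 82, 65 lay between the quartiles of the other genes (79.3%, interval 68.9 to 87.4), with 8 below and 9 above. Of other CpG-rich genes with a promoter DHS 53.2% lay in that range (52.1 to 54.4). Of the mitochondrial ribosomal protein genes it was 68.4% (56.7 to 78.6), an interval that overlaps that of the members, and of the proteasome subunit genes 53.8% (37.2 to 69.9). Cytoplasmic ribosomal protein genes with a DHS had quartiles at 112 and 171, around a median of 140. Of the members with a DHS, 3 had a top score under the median of the whole list: Cox6b2 at 24.6, Cox7a1 at 29.0 and Ndufaf1, an assembly factor of complex I, at 31.1.

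Complex I, the NADH dehydrogenase, is the largest of the 5, and its 35 genes had a median score of 115 with quartiles at 86.5 and 136. Among the genes of its catalytic core, Ndufv1, which carries the NADH site, had a score of 111, Ndufv2 had 136 and Ndufs1 had 194. Ndufs3, Ndufs7 and Ndufs8, of the arm that leads electrons to quinone, had 127, 118 and 146. These core genes thus lay between 111 and 194, all above the median of other genes. The accessory subunits spread more widely, from 50.9 at Ndufa3, 52.9 at Ndufb8 and 53.5 at Ndufab1, the mitochondrial acyl carrier protein, to 225 at Ndufv3 and 469 at Ndufa11. The DHS of Ndufa11 was the strongest of all members, 1583 bp wide, and also covered the start of Vmac, 63 bp away on the other strand.

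Complex II, the succinate dehydrogenase, has only 4 subunits. The catalytic flavoprotein gene Sdha had a score of 110 and the iron-sulfur subunit gene Sdhb had 57.3, the lowest of the complex. The membrane anchor genes Sdhc and Sdhd had 88.9 and 126. Complex III, the cytochrome bc1 complex, had a narrow range from 86.7 at Uqcr11 to 143 at Uqcrh, the hinge protein, and 152 at Uqcrfs1, the Rieske iron-sulfur protein, with a median of 117. Its core protein gene Uqcrc1 had 88.0 and Uqcrc2 had 125. In complex IV, the cytochrome c oxidase, the 9 widely expressed genes ran from 76.3 at Cox7c and 78.4 at Cox5b to 137 at Cox7a2 and 146 at Cox4i1, around a median of 103.

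In complex V the median was 99.2. Atp5c1 and Atp5d, for the gamma and delta subunits of the central stalk, had 236 and 220, above Atp5b at 108 and Atp5a1 at 73.1, which encode the beta and alpha subunits of the catalytic head. The lowest were Atp5j2 at 60.7 and Atp5k at 70.2, both for small subunits of the membrane sector. The 3 genes Atp5g1, Atp5g2 and Atp5g3 encode the same mature c subunit of the rotor ring from separate chromosomes, and their scores were nearly alike at 90.5, 93.6 and 95.9. Of the assembly and related genes, Ndufaf3, an assembly factor of complex I, stood at 434, while Ndufaf2 and Ndufaf4 had 101 and 112 and Ndufaf1 had 31.1. Cox4nb was taken in by its name and shares its DHS with Cox4i1.

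**Figure D2:**
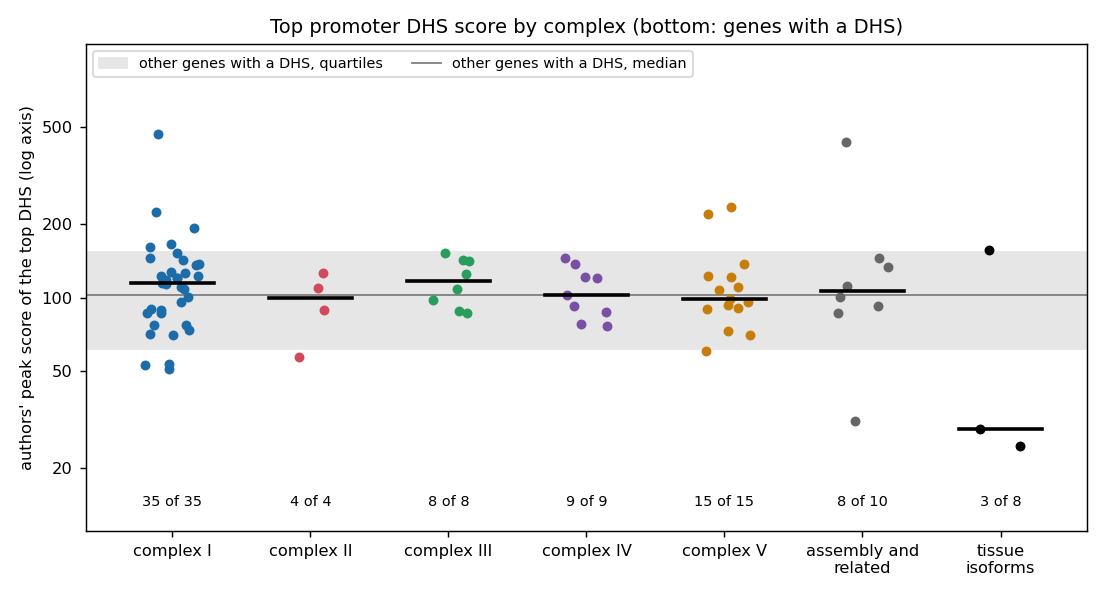
Authors' peak score of the top promoter DHS of each member on a log axis, by complex, with a black bar at each group's median, and the median and quartiles of the 11579 other genes with a DHS as grey line and band. The 5 complexes have medians between 99.2 and 117, and only 3 members lie under 32.65, the median of the list.

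The tissue isoforms were set beside their widely expressed counterparts. Cox4i1 had a score of 146, while no DHS was called within 1 kb of Cox4i2, an isoform of lung and of low oxygen. The nearest DHS to Cox4i2 lay 1053 bp from a start, with a score of 22.6. The liver-type gene Cox6a1 had a score of 122, and the heart and muscle gene Cox6a2 had no DHS nearer than 1613 bp. Cox8a had 92.3, against no promoter DHS at Cox8b, of heart and muscle, or at Cox8c, of testis. The DHS nearest to these were 2565 bp and 19905 bp away.

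For a further pair of isoforms a weak DHS lay over the start. Cox6b2, of testis, had a score of 24.6 where Cox6b1 had 103, and Cox7a1, of heart and muscle, had 29.0 where Cox7a2 had 137. Ndufa4l2, a gene induced by low oxygen, was the exception by score, with 157 beside 167 at Ndufa4, which was counted by its name with complex I though its protein is now placed in complex IV. Its DHS did not cover the start, however, but ran from position -3982 to -773 bp and was lost when the window was 500 bp on each side. Cox7b2, of testis, had its nearest DHS 612601 bp away. Its counterpart Cox7b lies on chromosome X, outside the rule.

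None of the 8 tissue isoform genes had a CpG-rich promoter, with ratios of observed to expected CpG from 0.17 to 0.47. A DHS at 3 of 8 (37.5%, interval 8.52 to 75.5) stood beside 34.1% of other genes of that promoter class. With DHS at or above the median score alone the shares were 12.5% and 28.0%. Within 500 bp of a start 2 of the 8 isoforms had a DHS, against 53.2% of all other genes, whatever their promoter class. Of the 6 counterparts 5 had a CpG-rich promoter, the exception being Cox6b1 with a GC content of 49.2%. Promoter class and isoform type therefore cannot be told apart in the pairs with a CpG-rich counterpart. In the pair of Cox6b1 and Cox6b2 neither promoter was CpG-rich, and the scores were 103 and 24.6. The CpG ratios of these genes were 0.78 and 0.43. In a wider window from 5 kb upstream to 2 kb downstream, 6 of the 8 tissue isoforms had a DHS, against 57.7% of other genes.

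**Figure D3:**
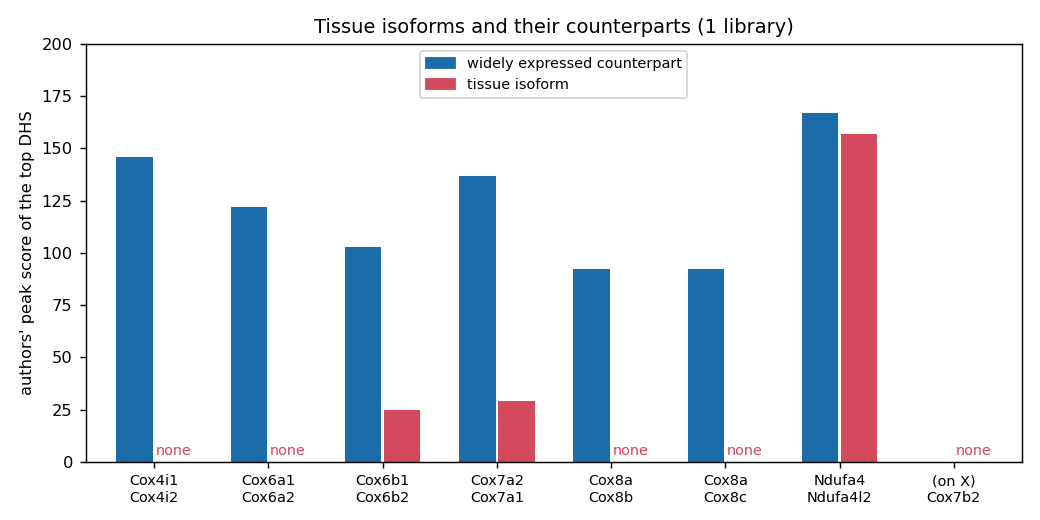
Authors' peak score of the top DHS within 1 kb of a start for each tissue isoform (red) and its widely expressed counterpart (blue), with "none" where no DHS was called; Cox8a is shown beside each of its isoforms. All 6 counterparts have a DHS with a score of at least 92.3, and 5 of the 8 isoforms have none. Of other genes without a CpG-rich promoter, the class of all 8 isoforms, 34.1% have a DHS.

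The promoters of one such pair are printed to show the contrast in CpG content, together with 3 that hold the NRF1 word, which is described further on. Each runs from 250 bases before the primary start to the 30th base from it, 280 bases in all, 5′ to 3′ along the gene, from the mm9 assembly. Capitals mark the 10-base word of NRF1 and the words of ETS (CCGGAAG) and ERR (AAGGTCA), on either strand.
Cox6a1 (chr5:115798961-115799240, minus strand): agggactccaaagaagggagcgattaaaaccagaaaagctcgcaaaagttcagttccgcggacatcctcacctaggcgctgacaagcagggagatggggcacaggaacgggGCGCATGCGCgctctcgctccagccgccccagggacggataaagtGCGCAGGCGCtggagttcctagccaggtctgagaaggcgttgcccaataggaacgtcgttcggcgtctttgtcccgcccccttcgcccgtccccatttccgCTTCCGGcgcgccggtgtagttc
Cox6a2 (chr7:135349851-135350130, minus strand): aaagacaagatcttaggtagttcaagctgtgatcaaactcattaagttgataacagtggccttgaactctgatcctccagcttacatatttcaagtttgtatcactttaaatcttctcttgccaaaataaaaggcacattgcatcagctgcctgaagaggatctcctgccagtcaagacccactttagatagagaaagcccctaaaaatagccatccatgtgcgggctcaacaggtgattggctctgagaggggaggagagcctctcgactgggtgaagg
Uqcrc1 (chr9:108838411-108838690, plus strand): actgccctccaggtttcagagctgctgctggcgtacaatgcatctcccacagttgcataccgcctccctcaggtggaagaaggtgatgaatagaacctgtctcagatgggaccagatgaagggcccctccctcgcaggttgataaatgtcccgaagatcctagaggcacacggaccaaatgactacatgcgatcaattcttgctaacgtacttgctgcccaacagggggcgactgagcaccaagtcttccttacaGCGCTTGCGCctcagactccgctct
Atp5k (chr5:108863438-108863717, minus strand): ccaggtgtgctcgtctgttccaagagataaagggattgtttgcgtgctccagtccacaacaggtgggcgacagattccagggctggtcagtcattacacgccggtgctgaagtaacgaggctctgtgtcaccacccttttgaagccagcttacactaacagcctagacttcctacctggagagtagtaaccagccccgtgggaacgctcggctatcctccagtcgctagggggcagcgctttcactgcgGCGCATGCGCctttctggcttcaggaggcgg
Atp5g3 (chr2:73749354-73749633, minus strand): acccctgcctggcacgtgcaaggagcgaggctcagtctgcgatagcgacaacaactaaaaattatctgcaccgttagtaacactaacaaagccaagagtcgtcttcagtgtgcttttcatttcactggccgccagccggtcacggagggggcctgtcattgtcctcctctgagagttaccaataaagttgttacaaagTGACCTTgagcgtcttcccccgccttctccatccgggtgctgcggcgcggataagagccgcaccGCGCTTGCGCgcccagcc
The Cox6a1 stretch holds 27 CG dinucleotides, NRF1 words at -139 to -130 and -94 to -85 and, just after the start, an ETS word. The stretch of Cox6a2 holds 2 CG and none of the 3 words. Atp5g3 has an ERR word at -52 to -46 and an NRF1 word at 12 to 21. Positions count from 0 at the primary start.

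The DHS of the members were mostly centred near the start. The top DHS had a median width of 1449.5 bp with quartiles at 1207 and 1695 bp, against a median of 1371 bp for other genes and 1436 bp for other CpG-rich genes. Its centre lay within 300 bp of the primary start for 67 of the 82 genes (81.7%), against 5795 of 11579 other genes with a DHS. Coverage by DHS was above that of other CpG-rich genes around the start itself and below it at 1000 bp on either side. At 100 bp downstream a DHS was present for 98.8% of members and 84.7% of other CpG-rich genes with a promoter DHS. At 1000 bp upstream the shares were 13.4% and 29.7%, and at 1000 bp downstream 15.9% and 40.1%. For ribosomal protein genes with a promoter DHS, mitochondrial and then cytoplasmic, the shares were 96.1% and 98.7% at 100 bp downstream and 11.8% and 19.5% at 1000 bp upstream. At 1000 bp downstream a DHS was present for 9 of 76 and 20 of 77 of them. At 50 bp upstream they were 78.9% and 77.9%, against 91.5% of members and 76.5% of other CpG-rich genes. A single DHS lay in the window for 64 of 82 members and for 7262 of 11579 other genes, and the remaining 18 members had 2 or 3. The DHS of Atp5f1, Atp5j and Atp5j2 covered the primary start but were centred 823, 771 and 582 bp downstream of it, and the first 2 of them also covered the start of a neighbouring gene.

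**Figure D4:**
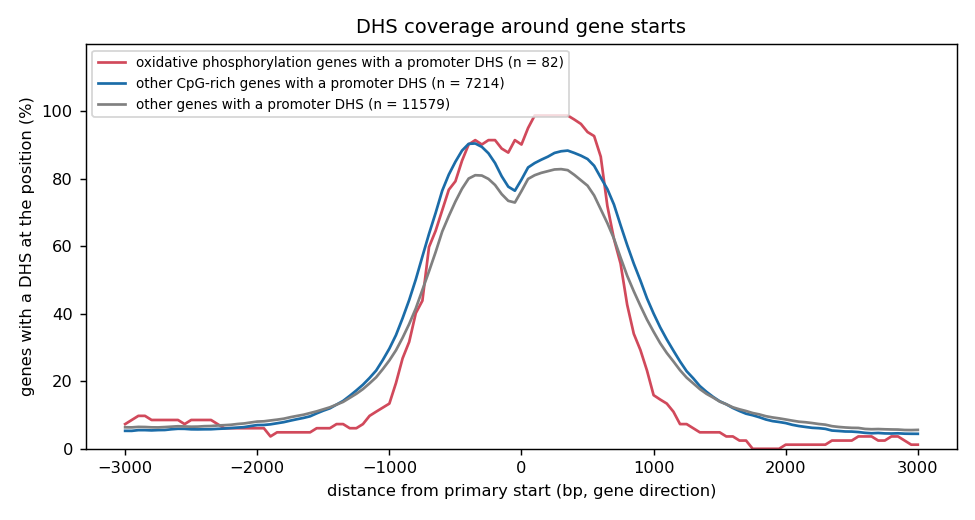
Share of genes with a DHS at each position from 3000 bp before to 3000 bp after the primary start, for the 82 members with a promoter DHS (red), 7214 other CpG-rich genes (blue) and all 11579 other genes (grey) with one. The red curve is the higher near the start, 90.2% against 79.8% for CpG-rich genes at position 0, and the lower at 1000 bp on either side.

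The members are short genes, with a median length of 7593 bp against 22167 bp for other genes. Within the gene body beyond the promoter, 9.76% of the 82 genes had a further DHS, against 40.1% of other genes, but per 100 kb of body the numbers were 2.13 and 2.65. Of the 24 such DHS at members 14 lay in the body of Atp5o alone, and without that gene the number was 1.14 per 100 kb. The gene model of Atp5o is far longer than the median, running from base 91684643 to 91931932 of chromosome 16. No member had more than 50% of the 31-base words around its start repeated elsewhere in the assembly, whereas this was so for 15 of 134 gene models of cytoplasmic ribosomal proteins, many of which are copies and of which only 57.5% had a DHS.

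Many members share their promoter with a gene on the opposite strand. A protein-coding start facing away within 1 kb was present for 25 of the 89 (28.1%, interval 19.1 to 38.6), against 8.85% of other genes and 16.2% of other CpG-rich genes. The share was much the same for mitochondrial ribosomal protein genes, at 31.2%. In complex II, 3 of 4 genes had such a partner, among them Sdha with Ccdc127 at 29 bp and Sdhd with Timm8b, a gene of a mitochondrial import protein, at 52 bp. In complex I it was 11 of 35, in complex III 4 of 8, in complex IV 1 of 9 and in complex V 3 of 15, and of the tissue isoforms 0 of 8 had one. Ndufs1 and Eef1b2, a translation elongation factor, start 3 bp apart, and Ndufa7 and the ribosomal protein gene Rps28 29 bp apart.

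Members with a partner had a median top score of 127, with 25 genes, and those without had 96.4, with 57. Of the 5 strongest members, Ndufa11, Atp5c1, Ndufv3 and Atp5d had a partner (Vmac, Kin, Wdr4 and Dos), and Ndufaf3 did not. The DHS of 28 of the 82 members (34.1%) covered the start of another protein-coding gene, against 18.2% of other genes with a DHS. That of Atp5j, with a score of 138, covered the start of Gabpa, which encodes the ETS factor named above, and that of Ndufb5 covered Mrpl47, a mitochondrial ribosomal protein gene. The score of a shared DHS cannot be divided between its genes.

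Words of 9 DNA-binding factors were searched in the window from 250 bases before to 50 after the primary start, 300 bases in all, on both strands, with no mismatch allowed. A word is a match of letters, not a bound site. The NRF1 word, seen in capitals in the promoters of Cox6a1, Uqcrc1, Atp5k and Atp5g3, was present at 15 of 89 members (16.9%, interval 9.75 to 26.3), 6.20% of all promoters and 12.3% of other CpG-rich promoters. Among members with CpG-rich promoters it was 24.5% (13.3 to 38.9). All of these had a promoter DHS, and of other CpG-rich genes with a promoter DHS 13.9% had the NRF1 word (13.1 to 14.7), an interval that overlaps that of the members. It was present at 17.1% of proteasome subunit genes and 14.3% of mitochondrial ribosomal protein genes. The ETS word CCGGAAG was present at 19.1% of members, 11.1% of all promoters and 18.3% of other CpG-rich ones, and at 36.4% of mitochondrial ribosomal protein genes. For the ETS word the members' interval of 11.5 to 28.8 held the value of the CpG-rich class.

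The SP word GGGCGG was present at 47.2% of members, near the 45.1% of other genes but under the 77.8% of other CpG-rich genes, and CpG-rich members had it at 61.2% (46.2 to 74.8). The remaining words were TGACGTCA of CREB at 5.62% of members and 2.35% of other genes, ATGGCGG of YY1 at 7.87% and 5.19%, the word of THAP11 at 3.37% and 1.42%, CCAAT of NFY at 37.1% and 37.4%, and the TATA word TATAAA at 10.1% and 13.5%. Of other CpG-rich genes 8.81% had the YY1 word, against 6.12% of CpG-rich members, and 4.54% had the TATA word, against 2.04%. The words can overlap one another only at their ends. A word that is absent says only that these letters do not occur in this window.

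The ERR word AAGGTCA stood out in position. In the 300-base window it was present at 9 members (10.1%, interval 4.73 to 18.3), against 3.93% of all promoters. In 500 bases on each side of the start it was present at 38 of 89 members (42.7%, 32.3 to 53.6), 14.1% of other genes and 9.89% of other CpG-rich genes. The division of this window into 4 stretches was added after the data were seen. In the 250 bases before the start the word was present at 6.74% of members (interval 2.51 to 14.1), 3.48% of other genes and 2.05% of other CpG-rich genes (1.76 to 2.37). In the 250 bases farther upstream it was at 6.74%, 4.58% and 4.15%. Downstream it was present at 21.3% of members (13.4 to 31.3) and 3.04% of other genes in the first 250 bases, and at 18.0% (10.6 to 27.5) and 4.08% in the rest.

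Taking both downstream stretches, 32 members had the word after their start (36.0%, interval 26.1 to 46.8), against 6.88% of other genes (6.54 to 7.23) and 4.20% of other CpG-rich genes that had a promoter DHS. Mitochondrial ribosomal protein genes were between, with 12 of 77 (15.6%, 8.32 to 25.6), and 1 of 41 proteasome genes had it. By complex it was 10 of 35 genes of complex I, 2 of 4 of complex II, 5 of 8 of complex III, 6 of 9 of complex IV and 8 of 15 of complex V, so it was present in each. Of the 10 assembly and related genes 0 had it, with an interval of up to 30.8%. Among the tissue isoforms only Cox6a2 did, in a coding exon.

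Of the 38 words after a start, 29 lay in an intron of the primary transcript, 7 in an untranslated exon and 2 in a coding exon. On the strand opposite to the gene were 26 of them (68.4%), against 822 of 1572 at other genes (52.3%). No interval was taken for this share, and a difference between the strands was not tested. For each complex the member with the highest score among those with such a word is shown by the first word after its start with 10 bases on each side, from the mm9 assembly, read along the strand on which the word in capitals lies.
Ndufa11 (chr17:56857402-56857428, plus strand): tctggaagcaAAGGTCAgagggcgcgc
Sdhd (chr9:50411902-50411928, plus strand): tcgagggctcAAGGTCActctacaacc
Uqcrh (chr4:115747366-115747392, plus strand): taatctgcccAAGGTCAaccaaagaat
Cox4i1 (chr8:123192363-123192389, minus strand): cgggcgccccAAGGTCAccgagccgct
Atp5c1 (chr2:10001793-10001819, minus strand): caaagagaacAAGGTCAcggtctgatc
The words lie 227 to 233 bases after the start in Ndufa11, 36 to 42 in Sdhd, 294 to 300 in Uqcrh, 183 to 189 in Cox4i1 and 328 to 334 in Atp5c1. That of Sdhd is in an untranslated exon and the rest are in introns. The longer form TCAAGGTCA, the fuller binding word of the receptors, made up 9 of all 52 words at members (17.3%, interval 8.23 to 30.3) and 10.2% at other genes.

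At the 37 members with both an ERR word and a promoter DHS, all 50 words in the 500 bases on each side lay inside a DHS. The DHS of members mostly span this region, so position near the start and position in a DHS cannot be told apart. The median top score was 108 for the 31 members with a DHS and an ERR word after the start, and 111 for the 51 without the word. The YY1 word was present in the first 250 bases after the start at 21.3% of members (interval 13.4 to 31.3) and 13.3% of other CpG-rich genes, and in the 250 bases before it at 2.25% and 4.55%. Over 500 bases on each side it was at 30.3% of members, 13.4% of other genes and 23.2% of other CpG-rich genes. In that window it was at 39.0% of mitochondrial and 38.1% of cytoplasmic ribosomal protein genes.

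**Figure D5:**
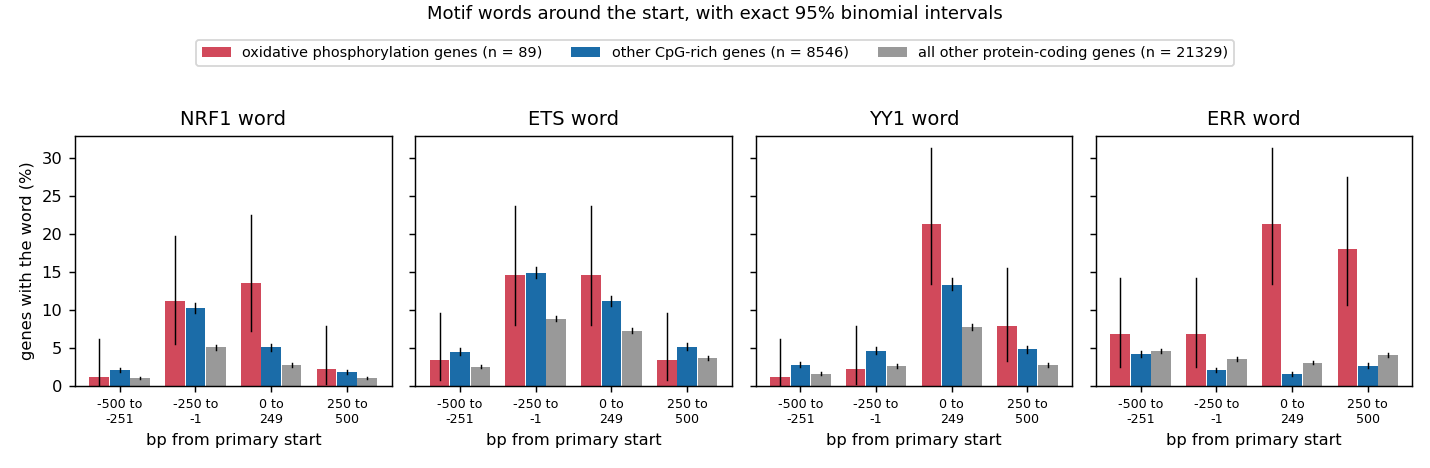
Share of genes with the NRF1, ETS, YY1 and ERR words in 4 stretches from 500 bases before to 500 after the primary start, for the 89 members (red), 8546 other CpG-rich genes (blue) and all 21329 other genes (grey), with exact 95% binomial intervals as black lines. The ERR word separates the members most, with 21.3% against 1.51% and 3.04% in the first 250 bases after the start.

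At 7 of the 82 members the primary start lay in a short gap between DHS on both sides, among them Atp5b, Atp5k, Ndufa6, Ndufb10, Ndufb4 and Ndufs4 (8.54%, interval 3.50 to 16.8), against 10.8% of other genes and 14.6% of other CpG-rich genes with a DHS. The gaps were narrow, from 61 to 210 bp with a median of 82 bp, against a median of 259 bp at other genes, 153 bp at mitochondrial and 99 bp at cytoplasmic ribosomal protein genes. At Atp5b the DHS before the gap had a score of 64.6 and that after it 108. None of the 31-base words in these 7 gaps was repeated in the assembly.

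Gaps of at most 250 bp between neighbouring DHS of the window, at the start or beside it, occurred at 14 members (17.1%, against 22.2% of other genes), and some NRF1 words lay in them. Of 20 NRF1 words at members with a DHS, 6 lay in such a gap (interval 11.9 to 54.3%), against 12.0% (10.4 to 13.8) at other genes. They were at Cox6a1, Uqcrc1, Atp5k and Ndufa6, the first 3 of which are printed above. The 20 words lie at 15 genes and some share a gap. The intervals for words count each word as independent, so they may be too narrow. In Uqcrc1 the gap is 53 bp long and holds words at 5 to 14 and at 30 to 39, the latter past the printed end. In Atp5k the word at -1 to 8 lies in a gap of 72 bp, and in Cox6a1 a gap of 151 bp holds both words. Of the NFY words at members 9 of 55 lay in a gap (16.4%, against 12.8% at other genes), and of the SP words 7 of 72 (9.72%, against 10.6%). Of 22 ETS words and 9 ERR words in the 300-base window 0 lay in a gap, and the intervals of up to 15.4% and 33.6% held the 6.61% and 1.43% of other genes. The interval of the NRF1 share at members overlapped that at other genes.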

How the data were processed

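DNase-seq of splenic B cells was represented by 1 peak list of the DNaseI library. The deposited score of each peak is the authors' value from their peak caller, MACS by the peak names; its scale, version and settings for the DNaseI library are not given in the sources used here, and those stated for the ChIP-seq of the study were not assumed to hold. The submitters' processing notes name BWA 0.6.2, SAMtools and the build mm9. Peak positions were compared with the lengths of the NCBIM37 chromosomes, and 1 DHS passed the end of its chromosome. The list holds no read counts, so depth is unknown and weak sites may be missing.

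DHS were joined to GENCODE M1 starts of protein-coding genes on chromosomes 1 to 19 with Python 3.11.15, numpy 2.4.6, scipy 1.17.1 and numba 0.67.0. Figures used matplotlib 3.10.9. Named by rule were the 2 highest and 2 lowest members of each complex, the Sdh genes, the complex I core subunits, the Atp5g genes, the tissue isoforms with their counterparts, members without a DHS and the 5 strongest with a divergent partner; other genes were named after their values were seen. Some named items are not reported here. The members and lists were chosen with earlier results of these data known. Alternatives covered the window, the score limit, the starts used and the comparison set. Interval and window code was tested on simulated data. As both labelled groups hold 1 library, nothing was tested between samples.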

Additional observations from a re-analysis of the deposited data

Results flagged for a closer look

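Genes of the same system outside the 89 members were covered by the list. Of the nuclear subunit genes on chromosome X, which the rule leaves out, Ndufb11 had a top promoter DHS score of 101, Ndufa1 a score of 79.6, with the start itself not covered, and Cox7b, the counterpart of Cox7b2, a score of 44.7. These were drawn out as signal in data that no comparison used. Lower scores than those of these genes were held by 45.1%, 20.7% and 3.66% of the 82 members with a DHS. In the mitochondrial genome, which encodes 13 further subunits, 7 of the 13 genes overlapped a DHS, with scores from 113 to 404, and mt-Atp6, mt-Atp8, mt-Co2, mt-Co3, mt-Nd3 and mt-Nd4l did not. The overlap counted here was with the gene itself, not with a window around its start. These values therefore cannot be set beside those of nuclear promoters.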

How the results depend on the processing

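Over 22 results and 51 alternatives, 40 values stayed within the 95% interval of the reported one. The 92.1% of members with a promoter DHS was between 88.8% and 96.6% under other windows, score limits and choices of start, was 94.2% without 3 gene models that are no subunit genes of their own, and rose to 100% when only widely expressed subunits were kept, a set sorted by hand that holds none of the genes without a DHS. The difference of 6.33 in median top score from other genes was 6.65 between CpG-rich genes of both sets (added after the data were seen). It changed sign to -4.94 when all members, CpG-rich or not, were set against CpG-rich genes only, to -1.59 between genes without a divergent partner and to -1.88 (also added then) where the top DHS covers no other start; the cause was not tested. Over 500 bases on each side in place of the 300-base window, more sequence was searched, and the shares of other genes were higher too. There the ETS word was at 32.6% of members and 19.3% of other genes, and YY1 at 30.3% and 13.4%. SP was at 71.9% and 60.8%, NFY at 58.4% and 69.9%, ERR at 42.7% and 14.1%, and TATA at 25.8% and 31.9%. Of other CpG-rich genes, 23.2% had YY1, 95.3% SP, 61.6% NFY, 9.89% ERR and 14.4% TATA. For ETS the members' interval in this window held the share of that class. The share of starts in a gap fell to 1.22%, 1 of 82 members, when gaps under 200 bp were not counted. By the same limit it was 768 of 11579 other genes and 704 of 7214 other CpG-rich genes with a DHS. No paired analysis was possible because each labelled group holds 1 library. The list of 1 library of unknown depth limits all shares to called sites, and no value could be checked in a replicate. The scores of DHS shared by neighbouring genes belong to both.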
